A study of Mus musculus with 8 samples.

Results

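The clustered histone genes are the rows of the deposited count table whose names begin with Hist1h, Hist2h, Hist3h or Hist4h, and 62 of the 16647 gene rows have such a name. A row became a member by its name alone. The family was chosen on an earlier result of these data, a difference of Hist1h2ae between the sorted populations, so the difference of Hist1h2ae between populations is given as a description with no test. The members hold 5 linker H1 genes, 18 H2A, 16 H2B, 11 H3 and 12 H4 genes. By name 51 belong to Hist1, on chromosome 13, 8 to Hist2, on chromosome 3, and 2 to Hist3, on chromosome 11. The remaining 1, Hist4h4, is on chromosome 6 (GRCm38, GENCODE M21). The annotation calls 61 of them protein coding and 1, Hist1h2al, a processed pseudogene. Hist1h2al starts at position 51202727 of chromosome 13, away from the other Hist1 members.

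Core histones H2A, H2B, H3 and H4 form the octamer around which DNA is wound, and linker H1 binds where the DNA enters and leaves it. Most transcripts of the clustered genes are made in S phase, are not polyadenylated and end instead just after a short stem-loop that is bound by Slbp, the stem-loop binding protein. Most of the variant histones that lie outside the clusters (such as H2afz and H3f3b) are made through the cell cycle as ordinary polyadenylated messages. Drop-seq primes on runs of A, so the counts described here are of polyadenylated or A-rich histone RNA, and not of the whole histone message pool.

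Cells were Tri-PyMT cells, a mouse mammary tumour line carrying MMTV-PyMT, Fsp1-cre and Rosa26mT/mG. The MMTV promoter drives the PyMT oncogene in mammary epithelium, and the Fsp1 promoter (Fsp1 is S100a4) drives a Cre that switches the Rosa26 reporter from red to green. Cultured cells in DMEM with 10% FBS were sorted into an RFP+ and a GFP+ population and each was measured as 2 Drop-seq libraries, each sequenced on 2 lanes (8 samples in the labels), with no other treatment. Both populations carry all 3 transgenes. The labels do not say whether a population's libraries are of different cultures, and p-values therefore describe variation from library to library that could be technical alone. The libraries held 3081009 and 2988631 counts (RFP+ labelled, 1998 and 1997 cells kept) and 2598187 and 2550319 counts (GFP+ labelled, 1597 and 1798 cells), with medians of 1166 to 1358 counts a cell and 0 barcodes shared between libraries. The row for the GFP reporter was higher in the RFP+ labelled libraries (612 and 589.9 CPM, a unit in which each library sums to 1000000) than in the GFP+ labelled ones (99.7 and 104), and the RFP row was higher in the GFP+ labelled ones (2943 and 3053 against 132 and 137). Both rows go against the sort. S100a4, the Fsp1 gene, was higher in the GFP+ labelled libraries (1843 and 2114 against 648 and 676 CPM), which runs the way the labels say. Each direction below is that of the libraries as labelled. Epithelial markers were present in every library, and all 5 (Krt8, Krt18, Krt7, Epcam and Cdh1) were lower in both GFP+ labelled ones, with a summed level of 922 and 867 against 2108 and 2170 CPM. All 3 mesenchymal markers (Vim, Sparc and S100a4) were higher there, with 5759 and 6156 against 2995 and 2908 CPM. The leukocyte genes Ptprc, Coro1a, Lyz2 and Cd74, the endothelial genes Pecam1 and Kdr and the erythroid gene Alas2 were at 0.974 CPM or less.

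The linker H1 genes gave most of the counts. Annotated 3′ ends and A-rich stretches of the members are described here, and their part in the counts was not tested. Of the 62 longest annotated transcripts, 39 hold a histone stem-loop after the stop codon, 13 end at the stop codon, and 20 run on for at least 100 bases past the loop. For 5 of the tested members the 30 bases around the stem-loop are shown, read 5′ to 3′ from the GENCODE M21 transcripts (GRCm38), with the stem-loop in capitals.
Hist1h1e: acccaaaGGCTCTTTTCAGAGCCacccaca
Hist1h1d: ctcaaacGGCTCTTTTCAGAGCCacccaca
Hist1h2ae: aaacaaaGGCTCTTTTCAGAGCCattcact
Hist1h3c: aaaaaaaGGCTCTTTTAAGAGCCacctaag
Hist1h4d: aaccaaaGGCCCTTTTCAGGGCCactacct
The annotated Hist1h1e transcript continues for 1153 bases after this loop and that of Hist1h2ae for 151 bases, which hold 1 AATAAA hexamer. The annotated Hist1h1b transcript ends at its stop codon, so its loop was not searched. Within its coding sequence Hist1h1b has a stretch with 14 A in 20 bases, which codes for part of the lysine-rich linker histone. Whether an oligo-dT primer paired there was not tested.
Hist1h1b, transcript positions 132 to 151: aagaagaagacaacgaaaaa
The most A-rich 20 bases held 11 to 18 A in the H1 genes and 7 to 17 A in the core genes. Hist1h1d, with 18 A, had a mean of 145 CPM and Hist1h2ac, with 17 A, had 12.2 CPM, beside 1781 CPM for Hist1h1b. Over the 59 members with counts, the rank correlation of this number with the mean CPM was 0.20, and over the 54 core genes 0.10. These correlations are across genes of 1 set of libraries, which share sequence by descent, and carry no test.

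Motifs known from histone promoters recur upstream of the linker H1 genes. Below are 150 bases before the RefSeq start of 3 of them and of Hist1h2ae, the core gene with the most counts (GRCm38.p6), in the direction of transcription. Capitals mark AAACACA (an element known from H1 promoters), CCAAT and TATAAA on either strand.
Hist1h1b, chr13:21780626-21780775, minus strand: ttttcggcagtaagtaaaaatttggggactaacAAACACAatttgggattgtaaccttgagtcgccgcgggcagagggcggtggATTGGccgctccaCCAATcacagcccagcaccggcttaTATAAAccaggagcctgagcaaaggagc
Hist1h1e, chr13:23622559-23622708, minus strand: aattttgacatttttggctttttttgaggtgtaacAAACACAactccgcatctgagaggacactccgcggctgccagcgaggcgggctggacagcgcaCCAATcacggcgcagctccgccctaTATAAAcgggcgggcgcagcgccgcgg
Hist1h1d, chr13:23554882-23555031, plus strand: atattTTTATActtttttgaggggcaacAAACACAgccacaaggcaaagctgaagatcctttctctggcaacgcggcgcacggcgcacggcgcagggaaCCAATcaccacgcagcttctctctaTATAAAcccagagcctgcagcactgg
Hist1h2ae, chr13:23571221-23571370, minus strand: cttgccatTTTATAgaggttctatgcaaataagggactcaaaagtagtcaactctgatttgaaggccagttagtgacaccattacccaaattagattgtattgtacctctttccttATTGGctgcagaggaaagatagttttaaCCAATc
RefSeq promoters, which run from 250 bases before a start to 50 after it, were matched for 55 members. Motifs were searched only in the 250 bases before the start. On either strand, CCAAT was present in 46 of the 55 members (83.6%) and in 33.8% of all 32851 promoters. TATAAA was in 28 members (50.9%) and 12.4% of all promoters. AAACACA was found in 4 of 5 H1 promoters, in 2 of 16 H2A and 2 of 14 H2B promoters, in none of the 9 H3 and 11 H4 promoters, and in 6.25% of all promoters. CCAAT was present in all 5 H1, 16 H2A and 14 H2B promoters and in 8 of 9 H3 promoters, but in 3 of 11 H4 promoters.

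Together the 62 genes gave 44618 counts, or 3218 and 3256 CPM in the RFP+ labelled libraries and 4779 and 4924 CPM in the GFP+ labelled ones. Both GFP+ labelled values were above both RFP+ labelled ones, and the ratio of the means was 1.499 (1.48 without Hist1h2ae). With 2 libraries against 2 an exact two-sided permutation test cannot go below p = 0.33, so none is given for these sums. In sums over cells, fewer cells with histone RNA and less of it per cell cannot be told apart. Linker H1 made up 83.5 to 85.7% of all histone counts in every library although it is 5 genes of 62. The summed H1 level was 2759 and 2720 CPM against 3988 and 4185 CPM. H2A stood at 305 and 376 against 578 and 524 CPM, a ratio of means of 1.62, and H2B at 63.6 and 63.6 against 89.3 and 91.4 CPM. Each of these 3 types was thus higher in both GFP+ labelled libraries. H3 genes summed to 59.7 and 65.9 against 83.1 and 72.9 CPM, and H4 genes to 30.2 and 30.4 against 39.6 and 49.8 CPM. They too lay higher in both GFP+ labelled libraries, and ratios over the 5 types ran from 1.24 (H3) to 1.62 (H2A). By cluster, Hist1 held at least 98.9% of the histone counts, Hist2 had 14.3 and 12.7 against 23.1 and 21.6 CPM, and Hist3 went the other way, with 17.5 and 18.1 against 12.7 and 10.2 CPM.

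Counts were concentrated in few members. Hist1h2ba, Hist1h4k and Hist2h2aa2 had none in any library, 27 had under 20 counts in all and 16 had at least 100. A filter of 10 CPM in either population and 20 counts in all passed 16 members, which hold 97.8% of the histone counts. The other 46 could not be tested. Their summed level was 77.6 and 76.0 CPM in the RFP+ labelled libraries and 100.5 and 95.3 CPM in the GFP+ labelled ones.

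**Figure D1:**
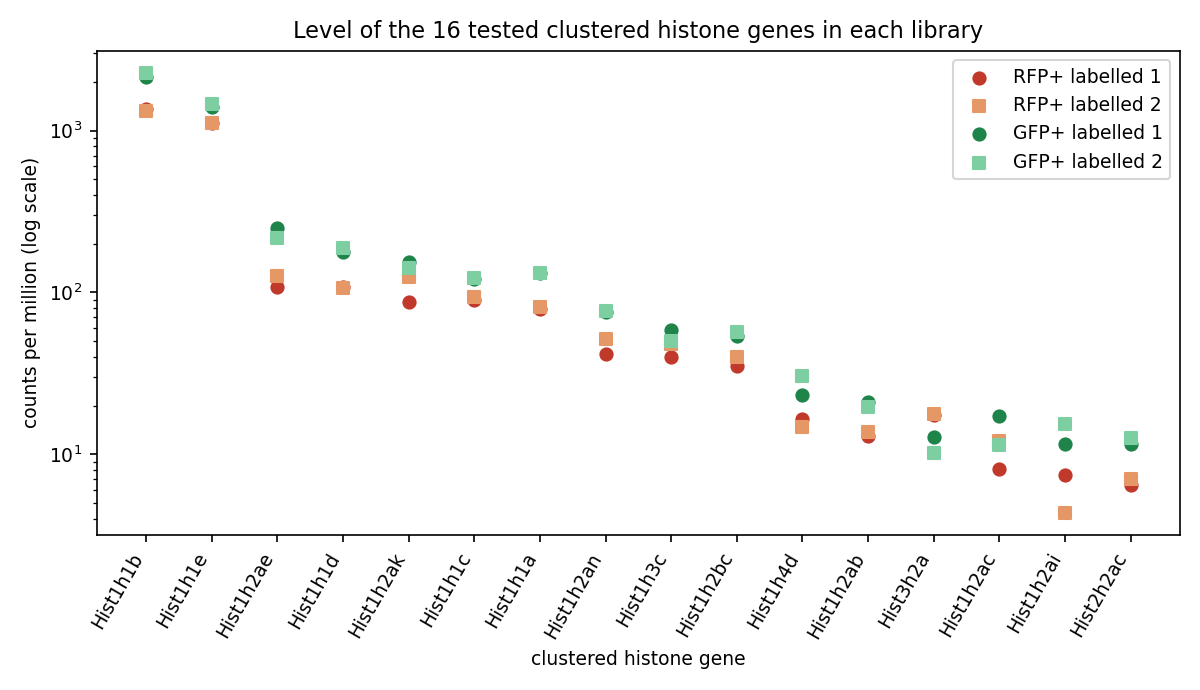
CPM (log scale) of the 16 tested clustered histone genes, ordered by mean level, with 1 point for each of the 4 libraries. Hist1h1b and Hist1h1e stand near or above 1000 CPM in each library, and Hist3h2a is the 1 gene whose RFP+ labelled points (17.5 and 17.7) lie above both GFP+ labelled points (12.7 and 10.2).

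Across populations the highest member was Hist1h1b, a linker histone known from dividing cells, at 1367 and 1327 CPM in the RFP+ labelled libraries and 2155 and 2277 CPM in the GFP+ labelled ones. The groups did not overlap, and the log2 fold was 0.70 ± 0.05 (SE, edgeR). Hist1h1e, the second linker gene, had 1116 and 1111 against 1403 and 1465 CPM, a smaller log2 fold of 0.35 ± 0.05. For Hist1h1d the values were 108 and 106 against 177 and 189 CPM, and for Hist1h1a 78.9 and 81.6 against 132 and 131 CPM. Hist1h1c had 90.2 and 94.0 against 121 and 123 CPM. All 5 H1 genes were therefore higher in both GFP+ labelled libraries, by log2 folds from 0.35 (Hist1h1e) to 0.76 (Hist1h1d). Among the core genes Hist1h2ae had 107 and 126 CPM in the RFP+ labelled libraries and 249 and 218 CPM in the GFP+ labelled ones, a ratio of means of 2.001. Hist1h2ak, another H2A gene, had 87.6 and 124 against 155 and 142 CPM. Its RFP+ labelled libraries lay further apart, relative to their mean, than those of any H1 gene, and without RFP+ labelled library 1 its log2 fold fell from 0.47 to 0.23 and its adjusted p in edgeR was 0.085. Hist1h2bc, the H2B gene with the most counts, stood at 35.1 and 40.2 against 53.9 and 56.9 CPM, and Hist1h4d, the leading H4 gene, at 16.6 and 14.7 against 23.1 and 30.6 CPM. Hist1h3c, the leading H3 gene, had 39.9 and 47.8 against 58.9 and 50.2 CPM and did not pass the threshold (log2 fold 0.30 ± 0.13).

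Hist1h2ae was left out of the counts that follow. In edgeR's quasi-likelihood test, adjusted over 7595 genes with a threshold of 0.05, 12 of the other 15 tested members were called higher and 1 lower in the GFP+ labelled libraries. Of all genes tested, 15.7% were called higher and 14.9% lower. Because the family was taken up on a result of this comparison, nothing is read from that count. The median log2 fold of the 15 was 0.60, beside 0.002 over all genes tested. In 13 of the 15 both GFP+ labelled libraries lay above both RFP+ labelled ones, as they did in 34.3% of all genes tested. In 1 of the 15 both lay below, as in 30.7% of all genes. Hist1h2ai and Hist2h2ac, at means of 5.91 and 6.76 CPM in the RFP+ labelled libraries, passed the filter only through the GFP+ labelled ones. Nothing is therefore read from the median or from these shares either. Hist3h2a, an H2A gene of the Hist3 cluster, was the 1 member called lower, with a log2 fold of -0.63 ± 0.24. DESeq2 called 5 higher and 0 lower, and Hist3h2a also lost its call when any 1 library was left out (log2 fold -0.79 to -0.50). Hist1h4d lost its call without GFP+ labelled library 2 (log2 fold 0.53), Hist1h2ai without RFP+ labelled library 2 or GFP+ labelled library 2 (0.84 and 0.93), and Hist1h2ab and Hist2h2ac without any 1 library (0.55 to 0.65 and 0.74 to 0.89). Hist1h3c gained one without RFP+ labelled library 2 (0.45). Sequence shared with other genes limits several H2A values, since Hist1h2ae has 43.2%, Hist1h2ak 52.3%, Hist1h2an 85.8% and Hist1h2ai 90.1% of its 50-base words in another annotated transcript. Of the H1 genes, Hist1h1b and Hist1h1a have none, Hist1h1d has 2.25%, Hist1h1c 8.54% and Hist1h1e 32.0%. For Hist1h3c the share is 47.0% and for Hist1h2ab 58.0%, and 28 of the 62 members share over 50%.

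Some genes related to histone supply also differed between the populations, in either direction. The counts below stand beside 15.7% of all genes tested called higher and 14.9% called lower. No list was tested as a set. Of 10 variant histones outside the clusters 9 were tested, 0 were called higher and 3 lower in the GFP+ labelled libraries. These were H2afx, the DNA damage variant (log2 fold -0.73 ± 0.08, edgeR adjusted p over all genes 4.05e-09), H2afv, a variant of the H2A.Z kind (-0.19 ± 0.07), and H3f3b, which codes for H3.3 (-0.14 ± 0.05). The median of the 9 was -0.09. In the list of histone 3′-end processing and decay genes 3 of 14 tested were called higher and 0 lower. Slbp stood at 34.5 ± 2.8 and 45.6 ± 7.4 CPM (mean ± SD, n = 2 libraries), with a log2 fold of 0.39 ± 0.15. The others were Cpsf2 (0.23 ± 0.08) and Srrt, a cap-binding partner (0.23 ± 0.06). Of 16 histone chaperone and import genes 3 were called higher, Nap1l4 (0.57 ± 0.06), Supt16, a subunit of the FACT chaperone (0.28 ± 0.06), and Rbbp7 (0.19 ± 0.06). The DNA replication list had 5 of 25 called higher and 3 lower, with a median of -0.02. Of the G1/S genes Mcm2 to Mcm7 and Pcna, 1 of 7 was called, Mcm4 (0.37 ± 0.08). Mitochondrially encoded genes, whose share can reflect cell or RNA quality, were lower in the GFP+ labelled libraries in all 8 tested, and made up 0.40 and 0.38% of counts there against 0.66 and 0.64%. The part of these genes, and of the epithelial and mesenchymal markers given above, in the histone difference was not tested.

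Per cell, every kept cell with at least 1000 counts was thinned to 1000 so that cells could be compared at 1 depth. That left 1545 and 1423 cells of the RFP+ labelled libraries and 1419 and 1233 of the GFP+ labelled ones. At least 1 clustered histone count was present in 85.4% (95% exact binomial interval 83.5 to 87.1) and 86.0% of RFP+ labelled cells and in 95.2% and 94.0% of GFP+ labelled cells. Without thinning the shares were 90.0 and 90.1% against 97.2 and 95.6%. Intervals cover counting error only. No cell type without histone RNA is present in these libraries, so the share that free RNA would give was not measured. Hist1h1b alone was present in 59.0 and 59.1% of thinned RFP+ labelled cells and 77.4 and 77.7% of GFP+ labelled ones, and Hist1h1e in 56.8 and 56.6% against 68.2 and 70.2%. Any core histone count was seen in 35.4 and 39.6% against 49.9 and 48.8% of cells. For Hist1h1b the variance over cells was larger than the mean in each library (3.31 against 1.34 counts per cell in RFP+ labelled library 1 and 6.36 against 2.36 in GFP+ labelled library 2), so its counts were more unequal between cells than equal levels with counting error would give. For core genes together the variance was closer to the mean (0.513 against 0.458 in RFP+ labelled library 1 and 1.04 against 0.761 in GFP+ labelled library 2). Their mean is lower, and at a lower mean the same inequality between cells brings the variance nearer to the mean. Inequality of the core genes and of Hist1h1b was therefore not compared. Doublets were not removed, and before thinning the highest count of Hist1h1b in a single cell was 53.

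**Figure D2:**
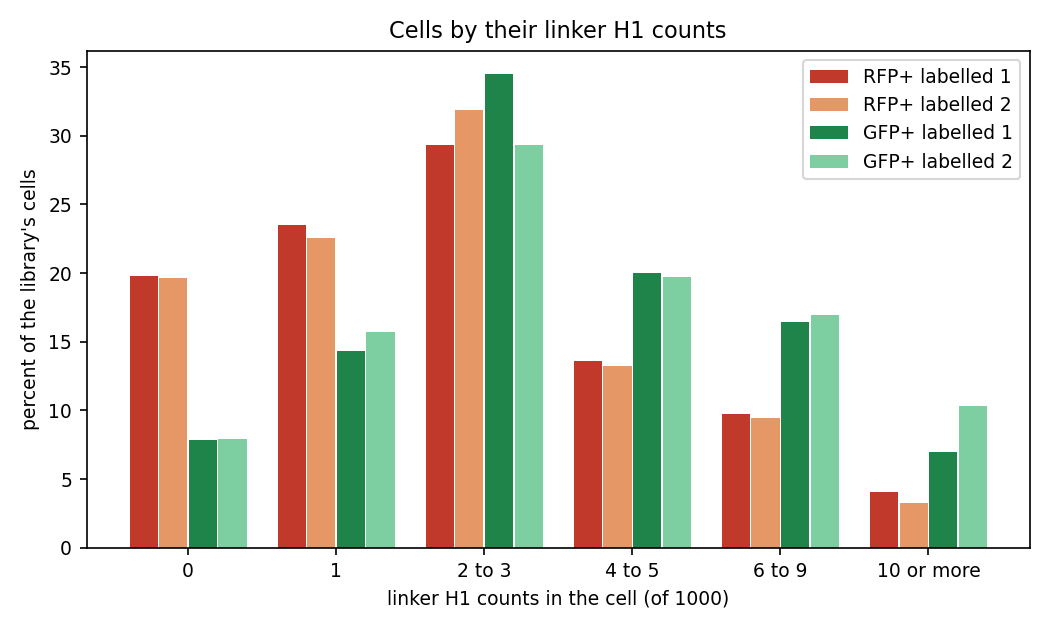
Percent of each library's thinned cells (bars, 1 for each of the 4 libraries) by the number of linker H1 counts among the cell's 1000. Cells with 0 H1 counts are 19.8 and 19.6% in the RFP+ labelled and 7.82 and 7.95% in the GFP+ labelled libraries.

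The distribution of linker H1 counts over cells differed between the populations at both ends. Cells with no H1 count were 19.8 and 19.6% of the RFP+ labelled libraries and 7.82 and 7.95% of the GFP+ labelled ones. At the other end, cells with 10 or more H1 counts of 1000 were 4.08 and 3.23% against 6.98 and 10.3%.

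The comparison with Mcm2 to Mcm7 (the replicative helicase) and Pcna (the polymerase clamp) asks whether histone RNA is higher in cells that hold G1/S transcripts. Hist1h1b and Hist1h2ae were higher in such cells. The sum over all 62 genes, most of it linker H1, was higher in cells with 5 or more of these counts than in cells with 0, in each library. In cells with 0, 1, 2, 3 to 4 and 5 or more of these counts, the summed histone level of RFP+ labelled library 1 was 3.14, 3.06, 3.31, 3.28 and 3.84 per 1000 counts. In RFP+ labelled library 2 it was 2.92, 3.05, 3.42, 3.48 and 3.71. GFP+ labelled library 1 had 4.32, 4.62, 4.85, 5.21 and 4.98, and library 2 had 4.69, 4.83, 5.27, 5.64 and 7.77. The last bin holds only 30 to 48 cells a library. In each of the 5 bins both GFP+ labelled libraries were above both RFP+ labelled ones. Core genes alone had 0.429, 0.495, 0.618 and 0.685 per 1000 counts in cells with 0, in the same order of libraries. They had 0.438, 0.509, 0.979 and 0.826 at 3 to 4 counts, and 0.5625, 0.763, 0.771 and 1.17 at 5 or more. Cells with any H1 count were 79.0, 79.3, 91.3 and 89.8% at 0 and 78.1, 73.7, 97.9 and 100% at 5 or more.

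**Figure D3:**
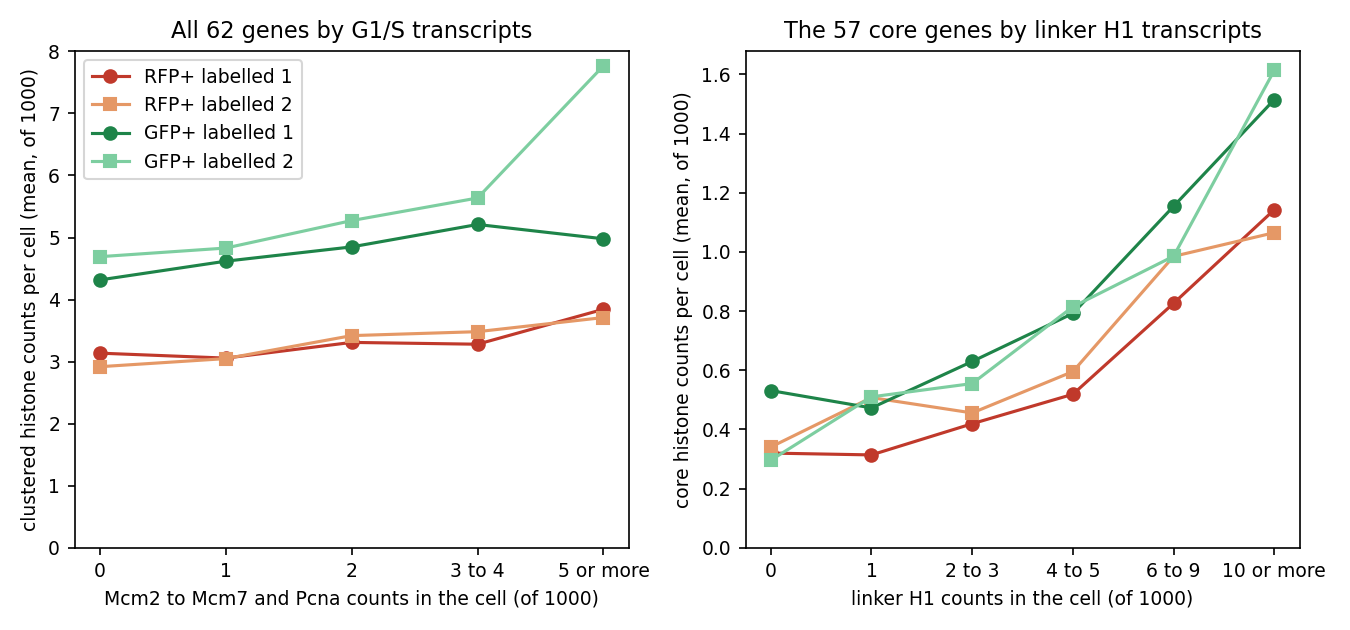
Mean clustered histone counts per cell of 1000 counts, 1 line for each library. On the left all 62 genes are plotted by the cell's Mcm2 to Mcm7 and Pcna counts, from 3.14 to 3.84 in RFP+ labelled library 1, and on the right the 57 core genes by the cell's linker H1 counts, from 0.320 to 1.14 in the same library.

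Cells with 3 or more G1/S counts (220 to 292 a library) were set against cells with 0 (314 to 424 a library) in a fit with the library as block. The G1/S genes chose the cells and were not tested. Cells at the edge of the high class, with exactly 3 counts, were 122 to 173 a library, and cells just under it, with 2, were 275 to 355. Hist1h1b stood at 1314, 1135, 1869 and 2124 CPM in the cells with 0 counts of RFP+ labelled libraries 1 and 2 and GFP+ labelled libraries 1 and 2. In the cells with 3 or more it stood at 1466, 1378, 2251 and 2795 CPM, higher in 4 of 4 libraries (log2 fold 0.27 ± 0.05, edgeR adjusted p 0.0027). Hist1h2ae had 94.3, 107, 176 and 182 CPM in the former and 140.4, 170.4, 347 and 282 CPM in the latter, also higher in 4 of 4 (0.74 ± 0.14, edgeR adjusted p 0.0031). These were the 2 of 15 tested members that were called higher, none was called lower, and 0.0396% of 7581 genes were called higher and 0.066% lower. Malat1, a nuclear RNA, was called lower in the cells with 3 or more (-0.29 ± 0.05, lower in 4 of 4 libraries, edgeR adjusted p 0.0012), while 0 of 8 mitochondrially encoded genes were called. Its part in the histone differences was not tested. Hist1h1d (0.51 ± 0.16) and Hist1h4d (1.12 ± 0.43) had estimates above 0 that did not pass. Hist1h2ak (-0.08 ± 0.17) and Hist1h1a (-0.003 ± 0.17) were near 0. The 25 DNA replication genes that did not choose the cells had 24 estimates above 0 and a median of 0.29, with 0 called in either direction, beside a median of -0.003 over all genes tested. Both histone calls depended on the settings. DESeq2, a thinning to 2000 counts and a fit without the library block each gave 0 calls, leaving out GFP+ labelled library 1 gave 0, and leaving out GFP+ labelled library 2 or drawing the thinning with another seed gave 1. Without GFP+ labelled library 1 the log2 folds were 0.28 for Hist1h1b and 0.62 for Hist1h2ae.

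The difference of the G1/S effect between populations was tested for 15 members, of which edgeR and DESeq2 each called 0, and edgeR gave 0 at an unadjusted p under 0.05. Over all 7581 genes, edgeR called 0% and had 330 at an unadjusted p under 0.05. For Hist1h1b the effect was 0.13 ± 0.10 (log2) larger in GFP+ labelled cells, and for Hist1h2ae 0.21 ± 0.28.

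Most cells held transcripts of G2 and mitosis. By a list of 17 such genes, 885 to 1098 thinned cells a library had 3 or more counts and 53 to 77 had none. Between these classes 0 of 15 tested members were called in either direction by edgeR, beside 0.493% of 7701 genes called higher, with 3 members at an unadjusted p under 0.05, and DESeq2 also called 0. Hist1h1c, a linker gene that is also made outside S phase, had 45.5, 51.9, 50.8 and 18.9 CPM in cells without such counts and 91.1, 79.7, 136 and 132 CPM in cells with them, in the order of libraries above. Its log2 fold was 1.39 ± 0.40, higher in 4 of 4 libraries, and its edgeR adjusted p was 0.074. Of the mitochondrially encoded genes 4 of 8 were called higher in the cells with G2/M counts and 0 lower (median 0.67), and Malat1 was higher (0.57 ± 0.09, 4 of 4 libraries, edgeR adjusted p 3.82e-08). The part of Malat1 and the mitochondrially encoded genes in the value of Hist1h1c was not tested.

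Of the core genes that could be tested, 6 were higher in cells with many linker H1 counts. This comparison was added after the values were seen. Cells with 6 or more linker H1 counts of 1000 (181 to 336 a library) were set against cells with 0 or 1 (292 to 669 a library), with the library as block. Cells at exactly 6 counts were 56 to 83 a library, and cells at 5 were 74 to 123. Of the 57 core members 46 could not be tested. Of the 11 tested, 6 were called higher and 0 lower, beside 0.486% of 7615 genes called higher and 0.263% called lower. The median log2 fold of the 11 was 1.68, beside 0.0008 over all genes. Hist1h2ab, Hist2h2ac, Hist1h2ai and Hist1h2ac passed the filter only through the cells with many H1 counts. Their means in the cells with few were 5.98, 3.14, 6.60 and 8.99 CPM. Their folds were thus bound to lie above 0, and nothing is read from the median or from the call of Hist1h2ab.

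The H2A genes Hist1h2ae, Hist1h2ak, Hist1h2an and Hist1h2ab were among the 6. Hist1h2ae had 83.7, 98.3, 146 and 103 CPM in cells with few H1 counts and 258, 276, 434 and 411 CPM in cells with many, in the same order of libraries. That is a log2 fold of 1.68 ± 0.14, higher in 4 of 4 libraries (edgeR adjusted p 4.52e-32). Hist1h2ak rose from 49.3, 96.7, 79.6 and 71.9 to 211, 276, 259 and 292 CPM (1.82 ± 0.16, edgeR adjusted p 1.87e-27). All 4 of its high values lie above all 4 low ones. Hist1h2an rose from 20.9, 30, 41.4 and 27.4 to 65.7, 110.5, 114 and 143 CPM (1.85 ± 0.25, edgeR adjusted p 9.71e-11). Hist1h2ab rose from 7.47, 6.67, 6.37 and 3.42 to 28.2, 27.6, 54.2 and 35.7 CPM (2.44 ± 0.47, edgeR adjusted p 9.42e-05). Hist1h3c, the H3 gene, rose from 23.9, 30, 35.0 and 37.7 to 84.5, 88.4, 105 and 59.5 CPM (1.46 ± 0.26, edgeR adjusted p 1.79e-05). For these 5 genes no high value lay under a low one. Hist1h4d, the H4 gene, had 4.48, 15.0, 25.5 and 10.3 against 32.9, 22.1, 30.1 and 62.5 CPM (1.44 ± 0.40, edgeR adjusted p 0.049). Its groups overlap, and its call was lost without any 1 library (log2 fold 1.01 to 1.92) and under every alternative other than choosing cells by Hist1h1b and Hist1h1e alone. Hist1h2ab lost its call without GFP+ labelled library 1 (2.23). DESeq2 called 3 of the 6.

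Hist1h2bc did not share the pattern. It had 28.4, 45.0, 47.8 and 75.3 CPM in cells with few H1 counts and 28.2, 16.6, 48.2 and 38.7 CPM in cells with many, with a log2 fold of -0.52 ± 0.30 (edgeR adjusted p 0.68). Its annotated transcript has 742 bases after the stop codon, in which no stem-loop was found. Hist3h2a, whose transcript runs on for 1643 bases past its loop, had a log2 fold of 0.27 ± 0.45. Hist1h2ac, Hist1h2ai and Hist2h2ac had estimates of 1.14 to 2.04 that did not pass. The transcript of Hist1h4d (log2 fold 1.44) runs on for 770 bases past its loop and that of Hist1h2ac (1.14) for 2010. The annotated transcripts of Hist1h2ak (1.82) and Hist1h2an (1.85) end at the stop codon, so no loop could be found. Differences between these genes' folds, and the part of their transcript ends in them, were not tested.

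**Figure D4:**
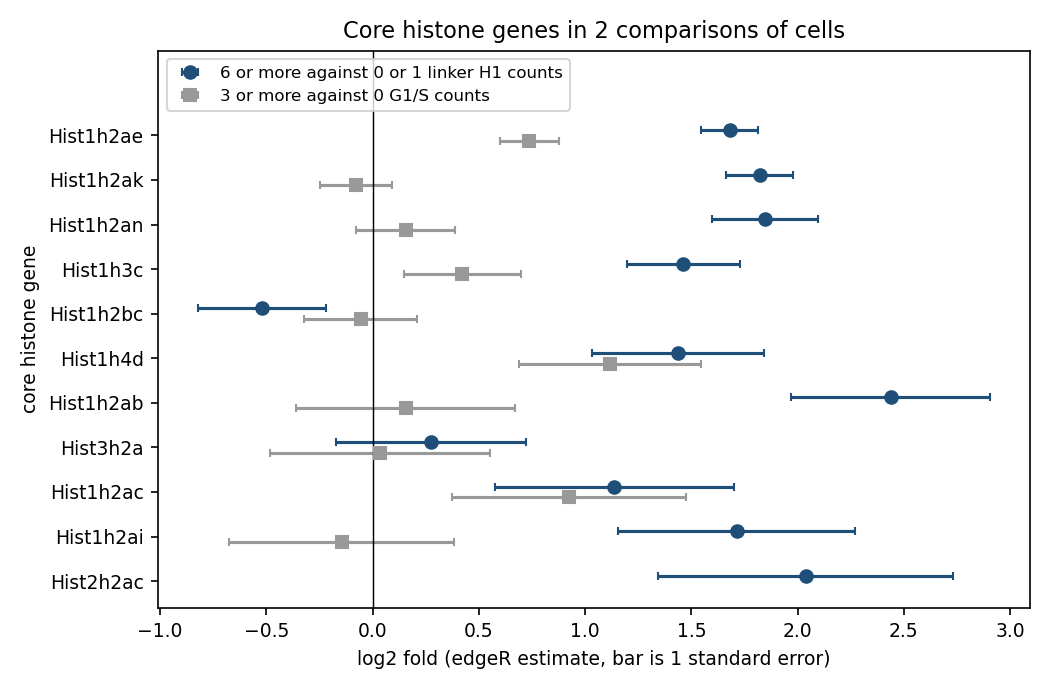
Log2 fold of each tested core histone gene with its standard error, in cells with 6 or more against 0 or 1 linker H1 counts (circles) and in cells with 3 or more against 0 G1/S counts (squares; Hist2h2ac was not tested there). Hist1h2ae is at 1.68 and 0.74, and Hist1h2bc at -0.52 and -0.06.

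Across the bins of linker H1 counts, all core genes together rose from 0.320, 0.341, 0.532 and 0.296 per 1000 counts in cells with no H1 count to 1.14, 1.07, 1.52 and 1.61 in cells with 10 or more. H2A rose from 0.216, 0.219, 0.342 and 0.214 to 0.873, 0.848, 1.27 and 1.31. The variant histones outside the clusters went from 4.48, 4.57, 3.87 and 4.41 to 4.79, 4.80, 4.67 and 4.63, a far narrower range. In the fit 1 of 9 variants was called higher, H1f0, the linker histone outside the clusters (0.42 ± 0.10, edgeR adjusted p 0.0047).

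Other genes were called between cells with many and few H1 counts. Of the DNA replication list 2 of 25 were called higher, Prim1, the primase subunit (0.52 ± 0.12, edgeR adjusted p 0.0073), and Lig1, DNA ligase I (0.48 ± 0.12), with a median of 0.31. Of the G1/S genes 1 of 7 was called, Mcm3 (0.45 ± 0.12). In the G2/M list 1 of 17 was called higher, Top2a, the topoisomerase (0.49 ± 0.07), and 5 lower, Cdc20, Cenpa, Ccnb2, Cenpf and Hmmr (-0.72 to -0.44). None of the 14 processing genes and none of the 16 chaperone genes tested was called by edgeR. Signs of RNA composition moved as well. Mitochondrially encoded genes had 4 of 8 called lower and 0 higher, among them mt-Nd1 (-1.18 ± 0.13), the nuclear RNA Malat1 was lower (-0.98 ± 0.05), and Gm26924 was higher (0.81 ± 0.04). Mitochondrially encoded counts per 1000 were 6.39, 5.97, 4.50 and 3.70 in cells with no H1 count and 3.59, 4.00, 2.08 and 2.39 in cells with 10 or more. Their part in the rise of the core genes was not tested. Median counts per cell before thinning were 1346.5 to 1461 in cells with no H1 count and 1498.5 to 1650 in cells with 10 or more.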

How the data were processed

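Single cells of the sorted populations were measured by Drop-seq on captured polyadenylated RNA, per the labels' protocols. The authors deposited 1 table of raw counts per gene and cell, as whole numbers, made on GRCm38 per the submitters' processing notes. The aligner, the counter, strand use and molecular identifiers: not given in the sources used here. The labels' 2 lanes of a library stand pooled in the columns, and the library is the replicate (n = 2 per population). Cells with under 500 counts or over 20% mitochondrially encoded counts were left out (10 of 7400), and doublets were not treated.

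Counts were summed per library, or per library and class of cells after thinning to 1000 counts, and tested with edgeR 4.0.16 (quasi-likelihood, TMM, Benjamini-Hochberg adjustment over all genes tested, threshold 0.05; at least 10 CPM in either group and 20 counts). Each SE was computed by dividing the size of the log2 fold by the root of F. Genes that chose a class were left out of its test. The procedure was tested on simulated data with known answers. DESeq2 1.42.0 was an alternative, with others listed in the closing section. Members, lists and rules were chosen with earlier results of these data known. Named were the 12 members with the highest mean CPM, the highest of each type and cluster, every member called, and up to 4 genes per related list. Gm26924 and Malat1 were named after their values were seen. Stem-loops were searched as a stem of 6 bases beginning GG with a loop of 4 bases beginning TT, after the stop codon of GENCODE M21 transcripts. Promoters are from RefSeq GRCm38.p6. Proteins were not used here.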

Additional observations from a re-analysis of the deposited data

How the results depend on the processing

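The number of members other than Hist1h2ae called higher in the GFP+ labelled libraries (12) was 5 in DESeq2 and 8 to 13 under the other settings, 8 to 10 when 1 library was left out. The 1 called lower became 0 in DESeq2, without a filter, with a 50 CPM filter, after thinning to 1000 counts, with length and GC offsets, and whenever 1 library was left out. A replicate block on the library number left 12 higher and 1 lower. The numbers are only names here, since the libraries numbered 1 deviated with a correlation of 0.020 over 7595 genes. For many against no G1/S counts, the 2 calls became 0 in DESeq2, after thinning to 2000 counts, with no replicate block and in cells with no G2/M count (only 2 members tested there), 1 with 5 or more counts or a second seed, and 0 to 2 without 1 library. For G2/M counts, the 0 calls became 3 without a filter and 1 after thinning to 2000 counts, where 1 to 4 cells a library have none. For H1 counts, the 6 calls became 3 in DESeq2, 4 after thinning to 2000 counts, 4 or 5 without 1 library, and 5 under every other setting except choosing cells by Hist1h1b and Hist1h1e alone (6). The summed level moved from 3237 to 3184 CPM (RFP+ labelled) after thinning, and to 3120 and from 4851 to 4618 CPM (GFP+ labelled) without Hist1h2ae. The causes were not tested, other than fewer genes or cells where stated. Length and GC offsets in the G1/S, G2/M and H1 comparisons, a G2/M class from 10 counts and all H1 settings were chosen after seeing the data. Thinned cells hold few counts of all but the linker genes, which limits single core members.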
